A study of Homo sapiens with 32 samples.

Results

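The transcripts described here are 37 genes of glycolysis and of the response to low oxygen, taken by gene symbol from a list drawn up with earlier results of these data known, out of 18583 gene entries with values. All 37 were found, and all 37 passed the filter on low counts in every comparison. They were measured in HGrC1, a human granulosa cell line that was immortalized and has not luteinized. Granulosa cells line the follicle around the oocyte and turn androgen into estradiol. Each of 4 frozen vials was thawed, expanded and split into a vehicle control (0.05% DMSO) and cultures given 0.01, 0.1 or 1 µM perfluorooctane sulfonate (PFOS), a persistent surfactant. RNA was taken after 6 and 12 weeks, which gave 32 libraries in 8 groups of n = 4. The vials are of a single line, so that p-values measure the spread between vials. All groups, controls included, grew in medium with 10% serum and 100 nM of a sex steroid, named estradiol in the sample labels and testosterone in the methods of the study. A single immortalized line is a limited model of the follicle: of 10 granulosa markers, AMH had a mean of 13.7 TPM (reads per transcript length, scaled to the same sum in each library) and FST 17.5, whereas FOXL2 had 0.633, CYP19A1 had a count in 1 of 32 libraries and FSHR was listed with no value.

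Glycolysis splits glucose into pyruvate in 10 enzyme steps, and lactate dehydrogenase then turns pyruvate into lactate, which leaves the cell. Hypoxia-inducible factors (HIF) are pairs of an alpha subunit (HIF1A or EPAS1) and a partner such as ARNT. When oxygen is present, prolyl hydroxylases of the EGLN family mark the alpha subunit for destruction, so that its protein level is set mainly after transcription. When oxygen is low the pair binds DNA at a short core, ACGTG or GCGTG, beside genes for glucose uptake, glycolysis, lactate export and vessel growth. Granulosa cells make much of the lactate and pyruvate that the follicle uses, in a tissue that has no vessels of its own.

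The total count per library lay between 17907057 and 18553350, so that depth was nearly equal. Transcripts of liver plasma proteins (AFP, AHSG, ALB, APOB, GPC3 and AMBP) summed to 0 to 1 count in the 6-week control and 0.01 µM libraries and to 72 to 174 counts in the others, apart from replicate 3 of the 12-week control, which had 919. Calls with PFOS, shares and several changes with time that rest on the 12-week control are therefore also given without that library. The share of counts from mitochondrial genes was 4.80 to 5.04% in the 6-week control and 5.52 to 6.77% at 0.1 and 1 µM after 6 weeks. Of 6 markers of blood, endothelial and epithelial cells, PTPRC, PECAM1 and CDH5 stayed at or under 1.37 CPM (counts scaled for the depth of the library) in every library, EPCAM reached 1.58 CPM and CDH1 3.33 CPM, and CD14 was the highest, at 1.82 to 10.5 CPM with counts in all 32 libraries.

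The glycolytic enzymes were among the most abundant transcripts of these cells. The 15 genes of the 10 steps together held 1.48% ± 0.0836 (SD, n = 32 libraries) of all TPM. GAPDH, the dehydrogenase of the sixth step, had a mean of 6212 ± 390.1 TPM (SD over 32 libraries) and ranked 18 among all entries. It was followed by the pyruvate kinase PKM (2136 ± 123), the enolase ENO1 (2059 ± 110.1) and the aldolase ALDOA (1479 ± 165), of which PKM and ENO1 differed by less than their spread. LDHA and LDHB, the subunits of lactate dehydrogenase, had 833 ± 76.4 and 780 ± 58.2 TPM. Within each 6-week library LDHA was the higher, with LDHB at 45.8 to 48.8% of their summed TPM. At 12 weeks the order differed between libraries, with LDHB at 46.5 to 54.8%. Glucose uptake and the first step were lower. The hexokinases HK1 and HK2 had 87.4 ± 15.1 and 11.9 ± 2.45 TPM, and the transporters SLC2A1 (GLUT1) and SLC2A3 (GLUT3) had 48.3 ± 5.07 and 15.9 ± 2.86. The phosphofructokinases PFKP, PFKL and PFKM had 307 ± 23.8, 159 ± 10.0 and 56.05 ± 3.82 TPM.

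The hypoxia-inducible members spanned a lower range. HIF1A itself had 122 ± 41.8 TPM and EPAS1, the alpha subunit of HIF-2, 31.1 ± 13.2. VEGFA, the growth factor of blood vessels, had 13.1 ± 1.93 TPM and ADM, the vasodilator adrenomedullin, 21.7 ± 3.92. At the bottom stood CA12 (2.09 ± 0.546) and CA9 (0.814 ± 0.233), surface carbonic anhydrases, and CA9 is the member that oxygen shortage is best known to raise. CA9 had 6 to 19 counts per library, so that its fold changes are imprecise.

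The first question was whether PFOS changed these transcripts against the control of the same time. Where members passed the test, they were lower with PFOS in each case, by modest amounts. After 6 weeks, 6 of the 37 members were called lower at 0.1 µM, beside 2.69% of all tested genes. After 12 weeks 4 were called lower at 0.1 µM and 1 at 1 µM, beside 0.542% and 0.133% of all tested genes. These counts depended on the libraries in the fit. With 1 vial left out they were 0 to 5, 0 to 2 and 1. HK2 and PFKFB3, which draw glucose into glycolysis, were called lower at 0.1 µM at both times, and VEGFA at 12 weeks at 0.1 and at 1 µM. HK2 at 6 weeks and PFKFB3 at 12 weeks lay near the threshold (edgeR adjusted p = 0.0443 and 0.0493). Both calls were lost without replicate 3 (0.285 and 0.591) and with only the libraries of the groups compared (0.115 and 0.0808). No member rose, and no change reached 2-fold. The 3 doses of one time were compared with the same 4 control libraries, so that these comparisons are not independent.

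**Figure D1:**
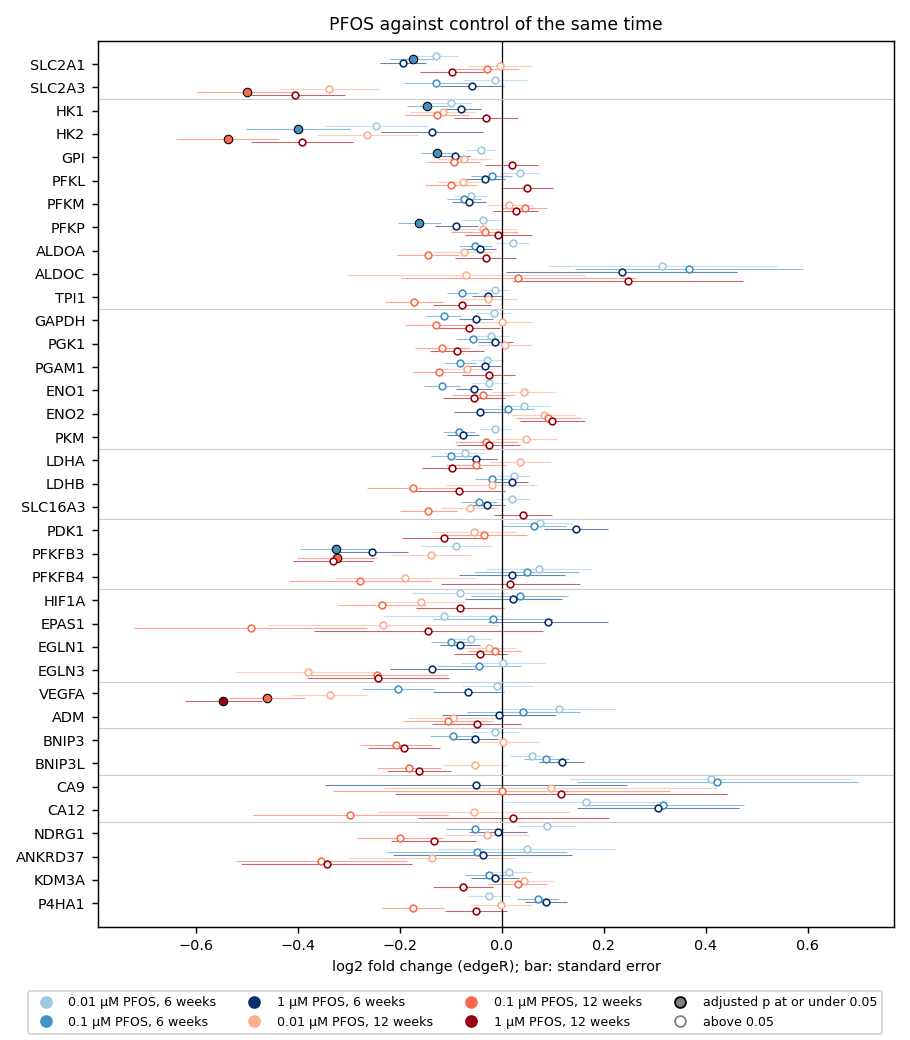
Log2 fold change (x axis) of each member (y axis, grouped by role) against the control of the same time in 6 comparisons, with the standard error as a bar, and filled points where the adjusted p was at or under 0.05. All 11 filled points lie left of 0, and those of VEGFA at 12 weeks reach −0.55 at 1 µM.

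At 6 weeks and 0.1 µM, the 6 members that fell (16.2% of 37) stood beside 2.69% of all 12836 tested genes that were called lower and 4.24% called in either direction. The median log2 fold change over the members was −0.05, beside 0.00 over all tested genes, and 27 of 37 lay below 0. PFKFB3 makes fructose 2,6-bisphosphate, the strongest activator of phosphofructokinase. It measured 51.5, 41.4, 45.6 and 44.7 CPM in the 4 control libraries and 38.2, 36.6, 37.1 and 34.4 CPM at 0.1 µM. The groups did not overlap, and the level fell by 20.2% (log2 fold change −0.33 ± 0.07 SE, adjusted p = 0.0173). HK2, the inducible hexokinase, measured 62.1, 47.7, 57.2 and 42.9 CPM in the control and 41.7, 36.4, 39.7 and 41.4 CPM at 0.1 µM. Replicates 1 and 3 of the control were the highest, and no treated library reached the lowest control (−0.40 ± 0.10 SE, adjusted p = 0.0443).

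The promoters of HK2 and PFKFB3, the members called lower at 0.1 µM at both times, are shown with matches to the short HIF core marked. Whether HIF had a part in their changes was not tested. The windows are the 250 bases before each annotated start, from RefSeq (GRCh38.p14), 5′ to 3′ on the gene's strand, with each ACGTG or GCGTG and their reverse complements CACGT and CACGC in capitals.
HK2, chr2:74833877-74834126, + strand: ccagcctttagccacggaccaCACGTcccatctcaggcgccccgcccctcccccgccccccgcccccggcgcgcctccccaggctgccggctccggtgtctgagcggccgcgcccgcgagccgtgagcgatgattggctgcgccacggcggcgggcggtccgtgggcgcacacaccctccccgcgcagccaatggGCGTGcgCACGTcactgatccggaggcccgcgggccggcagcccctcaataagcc
HK2, chr2:74834920-74835169, + strand: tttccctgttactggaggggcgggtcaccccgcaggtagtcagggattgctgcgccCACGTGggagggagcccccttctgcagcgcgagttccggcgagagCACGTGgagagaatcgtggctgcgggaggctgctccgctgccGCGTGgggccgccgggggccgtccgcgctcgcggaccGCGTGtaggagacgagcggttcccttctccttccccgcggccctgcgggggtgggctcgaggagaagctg
PFKFB3, chr10:6144671-6144920, + strand: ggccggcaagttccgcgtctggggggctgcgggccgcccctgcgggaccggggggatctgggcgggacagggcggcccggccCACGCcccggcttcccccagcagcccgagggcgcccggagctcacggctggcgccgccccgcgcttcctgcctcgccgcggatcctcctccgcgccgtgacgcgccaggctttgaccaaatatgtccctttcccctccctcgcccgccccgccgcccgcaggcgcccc
PFKFB3, chr10:6202682-6202931, + strand: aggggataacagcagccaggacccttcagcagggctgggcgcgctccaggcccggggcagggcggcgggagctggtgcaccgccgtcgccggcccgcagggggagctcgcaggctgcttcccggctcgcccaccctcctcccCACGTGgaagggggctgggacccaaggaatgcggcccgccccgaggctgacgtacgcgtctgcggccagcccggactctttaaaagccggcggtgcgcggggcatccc
The windows at the first start of HK2 and PFKFB3 held 3 and 1 matches, and those at the second start 6 and 2, counting both strands of a CACGTG palindrome. Of 61 windows of 33 members with an entry, 37 (60.7%) held at least 1 match, beside 43.2% of all 35116 windows and 54.9% of the windows of tested genes. These letters are short and common, and a match is not a site. VEGFA, SLC2A3, BNIP3L and NDRG1 had no entry.

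GPI, the isomerase of the second step, was the tightest of the 6. It had 341, 334, 347 and 343 CPM in the control against 306, 320, 314 and 311 CPM at 0.1 µM, all treated libraries lying below all controls (−0.13 ± 0.03 SE, adjusted p = 0.0180). HK1, the constitutive hexokinase, had 241, 229, 239 and 226 CPM against 214, 215, 213 and 203 CPM, again without overlap (−0.15 ± 0.04 SE, adjusted p = 0.0332). PFKP, the platelet-type phosphofructokinase, had 467, 514, 524 and 545 CPM against 461, 463, 465 and 445 CPM, where the lowest control lay only just above the treated range (−0.16 ± 0.04 SE, adjusted p = 0.0327). SLC2A1, the main glucose transporter, had 119.7, 105, 119.5 and 115 CPM against 98.7, 105, 106 and 97.1 CPM, and the groups overlapped at control replicate 2 (−0.18 ± 0.04 SE, adjusted p = 0.0281).

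Of the 9 upper glycolysis enzymes 4 fell at this dose and time, and of the 6 lower ones 0 passed in edgeR. Besides the 6 members, DESeq2 called the lower enzymes ENO1, GAPDH and PKM and the upper enzyme TPI1. The contrast of upper and lower enzymes therefore depended on the tool. GAPDH, the most abundant of the lower enzymes, had 4428, 4564, 4421 and 4381 CPM in the control and 3981, 4085, 4218 and 4166 CPM at 0.1 µM, without overlap, but its adjusted p missed the threshold (log2 fold change −0.11 ± 0.03 SE, adjusted p = 0.0543). ALDOA, the most abundant upper enzyme, had 1286, 1303, 1331 and 1329 CPM against 1275, 1272, 1273 and 1246 CPM (−0.05 ± 0.03 SE, adjusted p = 0.367). LDHA had 1233, 1224, 1223 and 1138 CPM against 1084, 1183, 1125 and 1109 CPM, and these ranges overlapped (−0.10 ± 0.04 SE, adjusted p = 0.156). Among the other roles, 1 of 2 transporters and 1 of 3 flux regulators fell, and 0 passed of the lactate genes, the HIF subunits and hydroxylases, the secreted peptides, the mitophagy receptors, the carbonic anhydrases and the other hypoxia-inducible genes.

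At 0.01 µM after 6 weeks 0 members passed the edgeR test, as did 0.0% of all tested genes, and DESeq2 called 0 members too. Without adjustment, 3 members and 1232 genes had p under 0.05. At 1 µM after 6 weeks 0 members passed, beside 0.28% of all genes. There 10 members had an unadjusted p under 0.05, beside 1757 of all 12836 tested genes. DESeq2 gave an adjusted p to 28 members and called 3 (SLC2A1, GPI and PFKFB3), beside 122 of 5855 genes. SLC2A1 came closest with 99.9, 105.5, 100.6 and 95.6 CPM, each below 3 of the 4 controls (−0.19 ± 0.04 SE, adjusted p = 0.0594, or 0.0280 with the vial as a block). With the block PFKFB3 passed too (adjusted p = 0.0459), which made 2 members. CA12 had the largest value of any member at 1 µM, with 12.0, 7.60, 11.6 and 9.30 CPM beside 10.3, 9.04, 6.84 and 6.65 CPM in the control (0.31 ± 0.16 SE, adjusted p = 0.417). CA9 had the largest value at the lower doses, with 0.769, 0.876, 0.607 and 1.03 CPM at 0.01 µM and 1.04, 0.608, 0.891 and 0.784 CPM at 0.1 µM, beside 0.763, 0.490, 0.442 and 0.776 CPM in the control. The changes of CA9 were imprecise, at 0.41 ± 0.28 SE and 0.42 ± 0.28 SE (adjusted p = 0.657 and 0.399).

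The 6 calls at 0.1 µM after 6 weeks depended on which libraries entered the fit. Without replicate 1, 2, 3 or 4, the numbers of members called were 2, 5, 0 and 1, and 0 passed when all 32 libraries shared 1 fit, whereas DESeq2 called 10 and the vial block 9 (GAPDH, ENO1 and VEGFA in addition). The liver transcripts and the mitochondrial share given above were also higher at 0.1 and 1 µM than in the control at 6 weeks, and their part in these differences was not tested.

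After 12 weeks VEGFA, HK2, SLC2A3 and PFKFB3 fell at 0.1 µM (10.8% of 37 members, beside 0.542% of all 12742 tested genes called lower and 1.07% in either direction). The median log2 fold change of the members was −0.13, against 0.00 over all tested genes, and 33 of 37 members lay below 0. At 1 µM VEGFA alone passed (2.70% of members, beside 0.133% of all genes called lower and 0.22% in either direction), with 28 of 37 members below 0 and a median of −0.06. Without replicate 3 of the 12-week control the medians were −0.09 at 0.1 µM and −0.02 at 1 µM, with 4 and 14 of 37 members above 0. At 0.01 µM 0 members passed, as did 0.0% of all genes, and DESeq2 called 0 members too. Without adjustment, 4 members and 1080 genes had p under 0.05.

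VEGFA (chr6:43770211-43786487, GRCh38.p14) gave the clearest difference. In the 12-week control it measured 34.4, 30.4, 39.2 and 34.6 CPM. The libraries at 0.01 µM had 29.1, 26.4, 28.6 and 25.7 CPM, those at 0.1 µM 26.5, 27.5, 22.7 and 23.7 CPM, and those at 1 µM 24.6, 22.6, 23.2 and 24.5 CPM. All 12 treated libraries lay below all 4 controls, and the group means went down with each dose, from 34.6 ± 3.61 in the control to 27.4 ± 1.66, 25.1 ± 2.26 and 23.7 ± 0.973 CPM (SD, n = 4), of which the last 2 differed by less than their spread. The level fell by 27.4% at 0.1 µM (−0.46 ± 0.07 SE, adjusted p = 0.00388) and by 31.4% at 1 µM (−0.55 ± 0.08 SE, adjusted p = 0.000647), whereas at 0.01 µM the log2 fold change was −0.34 ± 0.07 SE with an adjusted p of 0.472. The exact two-sided permutation p was 0.0286 at each dose, the smallest that 4 against 4 can give, and 0.219 after adjustment over 222 such tests. Without replicate 3 of the control, the highest library, VEGFA still passed at 1 µM (−0.48, adjusted p = 0.00470) and at 0.1 µM (−0.40, adjusted p = 0.0251). At 1 µM it also passed without any one vial, and at 0.1 µM it did not without replicate 3 (adjusted p = 0.159) or replicate 4 (adjusted p = 0.0691).

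HK2 measured 43.5, 37.5, 54.3 and 42.9 CPM in the 12-week control and 28.1, 29.7, 30.8 and 34.0 CPM at 0.1 µM, without overlap (−0.54 ± 0.10 SE, adjusted p = 0.0147). At 1 µM it had 31.96, 34.1, 39.0 and 31.0 CPM, where replicate 3 lay above the lowest control (−0.39 ± 0.10 SE, adjusted p = 0.146, or 0.0408 with the vial block). The pairing of control and 1 µM libraries at 12 weeks is uncertain, since their deviations from group means correlated negatively (mean r = −0.206). All block values for 1 µM at 12 weeks carry that limit. SLC2A3, the high-affinity glucose transporter GLUT3, measured 40.6, 37.2, 47.1 and 36.4 CPM in the control and 32.7, 26.9, 29.4 and 24.9 CPM at 0.1 µM (−0.50 ± 0.10 SE, adjusted p = 0.0174). Its libraries at 0.01 µM (33.3, 29.7, 34.6 and 30.1 CPM) and at 1 µM (33.8, 33.7, 28.8 and 25.6 CPM) were also below all controls, but did not pass (adjusted p = 0.548 and 0.113, the latter 0.0150 with the block). PFKFB3 measured 50.5, 39.3, 47.1 and 40.2 CPM in the control and 36.2, 33.6, 33.3 and 38.0 CPM at 0.1 µM, just under the threshold (−0.32 ± 0.08 SE, adjusted p = 0.0493). Its level at 1 µM was alike, at 36.9, 34.1, 35.1 and 34.9 CPM (adjusted p = 0.103).

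Replicate 3 of the control, the library with 919 liver transcript counts, was the highest control for VEGFA, HK2 and SLC2A3. Without it, 2 of the 4 calls at 0.1 µM held, VEGFA and HK2 (adjusted p = 0.0409), while SLC2A3 (adjusted p = 0.0855) and PFKFB3 (adjusted p = 0.211) did not pass. Leaving out vials 1, 2, 3 and 4 in turn gave 2, 2, 0 and 0 members at 0.1 µM and 1 member each time at 1 µM. With the vial as a block, where the pairing is uncertain, VEGFA, HK2 and SLC2A3 passed at 1 µM (3 members), and DESeq2 called 4.

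**Figure D2:**
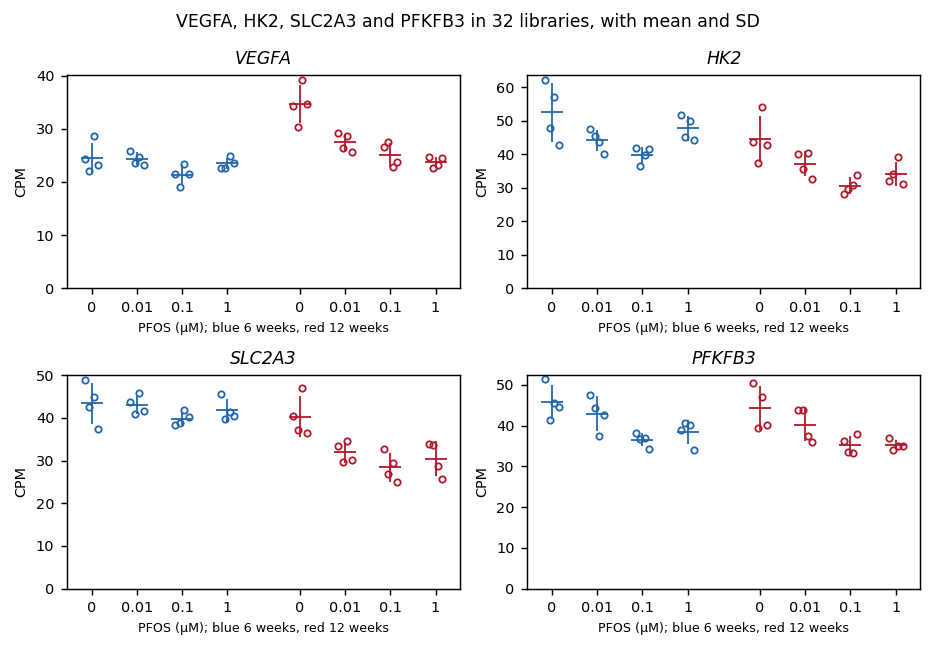
CPM of VEGFA, HK2, SLC2A3 and PFKFB3 (y axes) in each library (circles) by PFOS dose in µM, at 6 weeks (blue) and 12 weeks (red), with the group mean and SD as bars. At 12 weeks the VEGFA control lies at 30.4 to 39.2 CPM and no treated library exceeds 29.1 CPM.

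The other members named by their levels did not pass at 12 weeks. EGLN3, the prolyl hydroxylase that HIF itself raises, had the largest value at 0.01 µM, with 13.4, 12.5, 12.5 and 12.5 CPM beside 13.2, 13.5, 18.8 and 20.7 CPM in the control (−0.38 ± 0.14 SE, adjusted p = 0.565). Control replicates 3 and 4 were the high ones, and replicates 1 and 2 lay at the upper end of the treated range. BNIP3L, a mitophagy receptor, had 94.5, 91.8, 99.0 and 95.01 CPM in the control and 85.5, 89.8, 84.5 and 74.9 CPM at 0.1 µM (−0.18 ± 0.06 SE, adjusted p = 0.175). P4HA1, a collagen prolyl hydroxylase, had 74.6, 82.9, 88.2 and 85.2 CPM against 65.8, 75.3, 77.0 and 74.3 CPM (−0.18 ± 0.06 SE, adjusted p = 0.178). For the remaining members the adjusted p stayed above 0.05 in all 6 comparisons.

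Isozymes of a step can shift against each other, so that the share of each was tested over 6 pairs or trios of isozymes. HK2 made up 14.04% ± 0.900 (SD, n = 4) of hexokinase TPM in the 12-week control, 10.9% ± 0.225 at 0.1 µM and 11.3% ± 1.24 at 1 µM. SLC2A3 made up 26.9% ± 1.91 of the 2 transporters in that control, 22.6% ± 1.59 at 0.01 µM and 20.9% ± 1.60 at 0.1 µM. ENO2, the neuronal enolase, was a small share that went the other way, 1.73% ± 0.0819 in the 12-week control against 1.88% ± 0.0485 at 0.1 µM and 1.92% ± 0.0750 at 1 µM. Each of these differences had an exact two-sided permutation p of 0.0286, the smallest possible, as did 9 of 36 tests of PFOS against control, and all 9 had an adjusted p of 0.114 over the 36. Without replicate 3 of the 12-week control, the control shares were 13.6% for HK2, 26.1% for SLC2A3 and 1.76% for ENO2 (n = 3), and the treated groups named here still did not overlap them. That alternative was chosen after seeing the data, and the exact permutation test of 3 against 4 cannot go below p = 0.0571. The shares of LDHB, ALDOC and PFKP showed no such difference from the 12-week control at any dose. The rest of the 9 were at 6 weeks. There PFKP made up 57.9% at 0.1 µM against 60.0% in the control. ENO2 made up 1.66% at 0.01 µM and 1.73% at 0.1 µM against 1.58%.

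The second question was how the same cultures changed between 6 and 12 weeks within each dose, where time in culture and the date of harvest cannot be told apart. HIF1A and EPAS1 were lower at 12 weeks in the control and at each dose, whereas VEGFA and ADM were higher in the control. In all, 16 of 37 members were called in the control (43.2%, beside 36.6% of all 12988 tested genes), 19 at 0.01 µM (51.4%, beside 42.7%), 22 at 0.1 µM (59.5%, beside 40.3%) and 21 at 1 µM (56.8%, beside 30.1%). Of these, 12, 14, 17 and 18 were lower, beside 19.3%, 21.3%, 20.6% and 15.9% of all genes, and 4, 5, 5 and 3 were higher, beside 17.3%, 21.4%, 19.7% and 14.2%. Without replicate 3 of the 12-week control, 18 were called in the control. The medians of the members' log2 fold changes were −0.09, −0.11, −0.14 and −0.12, beside 0.00, 0.01, 0.01 and 0.01 over all tested genes.

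HIF1A (chr14:61695513-61748258) measured 444, 393, 394 and 330.2 CPM in the control at 6 weeks and 211, 184, 262 and 226 CPM at 12 weeks. The highest 12-week library of any dose (262 CPM) lay below the lowest 6-week library (330.2 CPM). The log2 fold changes were −0.82 ± 0.09 SE in the control and −0.89, −1.09 and −0.92 at 0.01, 0.1 and 1 µM, with adjusted p between 1.28e-09 and 1.69e-07. EPAS1 (chr2:46297407-46386697) measured 157, 144, 142 and 115 CPM in the control at 6 weeks and 56.8, 52.3, 103 and 75.1 CPM at 12 weeks. Replicate 3 was again the high library of the 12-week control, and it still lay below every 6-week library. EPAS1 fell by 0.96 on the log2 scale in the control (by 1.18 without that library), and by 1.08, 1.44 and 1.19 at 0.01, 0.1 and 1 µM, the last 3 past 2-fold. Both genes passed in each dose under every alternative, with log2 fold changes between −1.16 and −0.73 for HIF1A and between −1.48 and −0.80 for EPAS1.

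**Figure D3:**
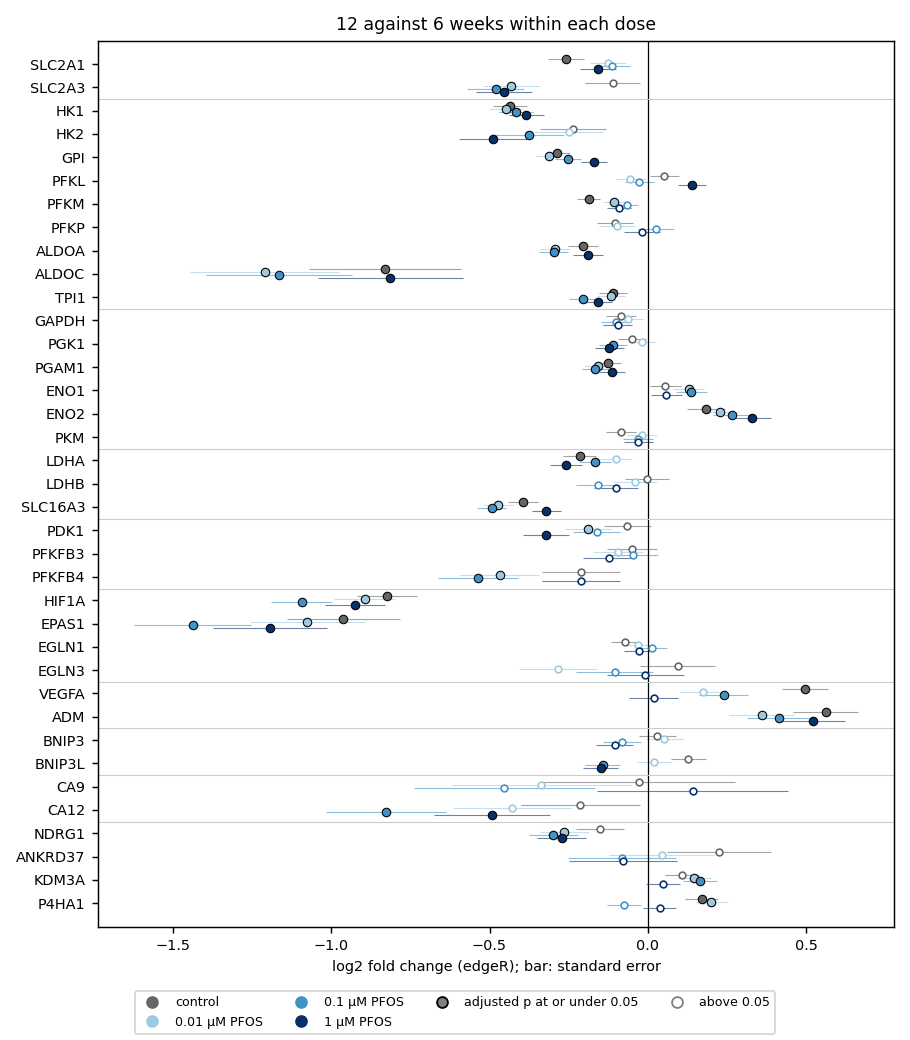
Log2 fold change from 6 to 12 weeks (x axis) of each member (y axis, grouped by role) in the control and at 3 PFOS doses, with the standard error as a bar, and filled points where the adjusted p was at or under 0.05. EPAS1, HIF1A and ALDOC reach furthest to the left, and ADM and VEGFA in the control furthest to the right.

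Members lower in all 4 comparisons numbered 9: HIF1A, EPAS1, HK1, GPI, ALDOA, ALDOC, TPI1, PGAM1 and SLC16A3. Of all tested genes 15.9 to 21.3% were lower in each comparison. The share lower in all 4 is not given here, so that the 9 cannot be set against it. ALDOC, the brain-type aldolase, fell by 1.21 on the log2 scale at 0.01 µM, from 3.52, 6.68, 6.29 and 5.24 CPM to 2.82, 2.26, 1.42 and 2.90 CPM (SE 0.24, adjusted p = 0.000109), though it gave under 1% of aldolase transcripts. At 1 µM its call was lost under 1 alternative or more (adjusted p up to 0.0926). SLC16A3, the lactate exporter MCT4, fell by 0.39, 0.47, 0.49 and 0.32 in the control and at 0.01, 0.1 and 1 µM. HK1 fell by 0.44, 0.45, 0.42 and 0.38, and GPI by 0.29, 0.31, 0.25 and 0.17. By role, 6 of 9 upper glycolysis enzymes fell in the control, against 1 of 6 lower ones, and GAPDH and PKM were called at none of the 4 (GAPDH −0.09 in the control, adjusted p = 0.151). Without replicate 3 of the 12-week control, GAPDH passed there (−0.13, adjusted p = 0.0331), and the changes in the control were −0.96 for ALDOC, −0.44 for SLC16A3, −0.49 for HK1 and −0.33 for GPI, all past the threshold. The 15 enzyme genes made up 1.61% ± 0.0111 of TPM in the control at 6 weeks and 1.44% ± 0.0599 at 12 weeks (SD, n = 4), or 1.41% ± 0.0446 without replicate 3 (SD, n = 3).

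Only ADM and ENO2 were higher in all 4 comparisons. Of all tested genes 14.2 to 21.4% were higher in each, and the share higher in all 4 is not given here. ADM measured 14.1, 13.7, 12.7 and 17.4 CPM in the control at 6 weeks and 18.7, 19.7, 22.5 and 24.5 CPM at 12 weeks, without overlap (0.56 ± 0.10 SE, adjusted p = 5.46e-05, and 0.54 without replicate 3 of the 12-week control), and rose by 0.36, 0.41 and 0.52 at the 3 doses. Its 12-week group means lay between 19.8 and 21.3 CPM.

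VEGFA went from 24.3, 22.1, 28.6 and 23.2 CPM at 6 weeks to the 30.4 to 39.2 CPM of the 12-week control, a rise of 0.50 ± 0.07 SE on the log2 scale (adjusted p = 2.13e-06, and 0.43 without replicate 3 of the 12-week control). It rose by 0.24 at 0.1 µM (adjusted p = 0.0125), whereas the change was 0.17 at 0.01 µM (adjusted p = 0.0623) and 0.02 at 1 µM (adjusted p = 0.886). At 1 µM the 6-week libraries had 22.7, 22.7, 24.9 and 23.5 CPM, and the 12-week libraries overlapped them. The difference between these changes was itself tested: the PFOS effect on VEGFA at 1 µM differed between the times by −0.48 ± 0.11 SE, with an adjusted p of 0.0519 in the edgeR test, just above the threshold, of 0.0193 with the vial block, and of 0.133 without replicate 3 of the 12-week control. The block value rests on the uncertain pairing of control and 1 µM at 12 weeks. In the edgeR test of this difference 0 members passed at any dose, beside 0.0%, 0.208% and 0.123% of all genes at 0.01, 0.1 and 1 µM. Without adjustment 3, 6 and 4 members had p under 0.05, beside 972, 1879 and 1571 of all 12988 tested genes. DESeq2 called 0 members, and gave an adjusted p to 37, 28 and 24 of the 37.

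**Figure D4:**
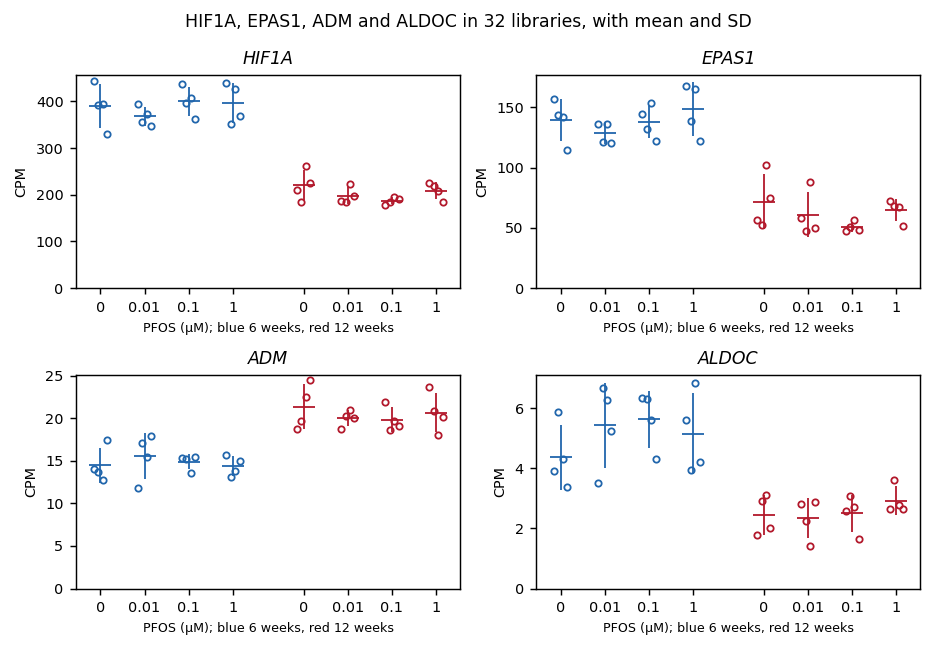
CPM of HIF1A, EPAS1, ADM and ALDOC (y axes) in each library (circles) by PFOS dose in µM, at 6 weeks (blue) and 12 weeks (red), with the group mean and SD as bars. No 12-week library reaches the 6-week range for HIF1A or EPAS1, and ADM lies higher at 12 weeks at every dose.

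Other genes of the same pathways, taken from a list, moved in both directions with time. Of 17 tested HIF targets outside the 37, 4 rose and 8 fell in the control, where 17.3% of all tested genes rose and 19.3% fell. LOX, which crosslinks collagen, fell by 0.61 on the log2 scale (adjusted p = 5.08e-07), and ANGPTL4, an inhibitor of lipoprotein lipase, fell by 1.88 (adjusted p = 1.08e-06). Of 5 HIF pathway regulators, 4 fell, among them ARNT2, a partner of the alpha subunits, by 1.81 (adjusted p = 1.63e-11). Of 14 genes of pyruvate entry and pyruvate dehydrogenase, 3 rose and 2 fell, close to the shares over all tested genes. With PFOS, 0 genes of these lists passed at either time except PDP2 and PDK2, higher at 0.1 µM after 6 weeks, and PDP1, lower at 0.1 µM after 12 weeks.

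The cultures also differed with time in other ways. Beside the counts below, 17.3, 21.4, 19.7 and 14.2% of all tested genes rose in the control and at 0.01, 0.1 and 1 µM. In the same order, 19.3, 21.3, 20.6 and 15.9% fell. Of 8 proliferation genes 3 rose in the control, 7 at 0.01 µM, 7 at 0.1 µM and 3 at 1 µM, and their summed level went from 2063 to 2109 CPM at 6 weeks to 2139 to 2430 CPM at 12 weeks in the control. Of 6 tested granulosa markers, 1 fell in the control (FST), 4 at 0.01 µM (FST, INHBA, FOXL2 and STAR), 2 at 0.1 µM (INHBA and STAR) and 2 at 1 µM (FST and STAR), where AMH rose. Of 5 tested blood, endothelial and epithelial markers 3 fell in the control and at each dose (PECAM1, CD14 and CDH1), and the 4 tested liver transcripts rose in the control and at 0.01 µM. At 0.1 and 1 µM the liver transcripts lay between 88 and 174 counts at both times. The part of all these genes in the changes of the members with time was not tested.

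Within groups, some members varied together and others in opposite directions. After the group mean of log2(CPM + 1) was taken from each value, HIF1A and EPAS1 had Pearson's r = 0.865 over the 32 libraries, EPAS1 and CA12 0.804, HIF1A and CA12 0.750, and HK2 had 0.701 with HIF1A. The lowest values were −0.683 for PFKP and KDM3A and −0.647 for SLC2A1 and EGLN3. The median over all 666 pairs was 0.111. VEGFA had 0.425 with EPAS1. The genes of a pair share their library, so that these values are a description.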

How the data were processed

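The authors sequenced stranded poly(A) libraries on a DNBSEQ platform and deposited expected counts per gene, estimated by RSEM and not normalized, and TPM values. Tool versions come from the submitters' processing notes: HISAT2 2.0.4, Bowtie2 2.2.5 and RSEM 1.2.8, on GRCh38.p14. RSEM divides reads among near-identical copies, so that genes with many processed pseudogenes (GAPDH, ENO1, PGAM1, LDHA, TPI1) are uncertain. The rows of LDHA and GPI in the files carry positions on alternate scaffolds. The deposited FPKM and normalized counts were not used, and 0 sample columns were left unmapped. The 37 members, their roles and the other lists were chosen with earlier results of these data known. The results of 2 further lists are not reported here.

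Expected counts were rounded and tested with edgeR 4.0.16 (TMM, filterByExpr, robust quasi-likelihood test, two-sided, Benjamini-Hochberg adjustment over all tested genes, called at 0.05) in R 4.3.3, with the 16 libraries of a time for PFOS against control and all 32 for 12 against 6 weeks and for the difference of the PFOS effect between times. Values in CPM are scaled by TMM over all 32 libraries. Alternatives were DESeq2 1.42.0, RLE factors, other filters, other library sets, each vial left out and a replicate block. Exact permutation tests of mean log2(CPM + 1), 4 against 4, and isozyme shares of TPM used scipy 1.17.1. On simulated counts of 0.1 µM against control at 6 weeks, 199 of 200 genes changed 2-fold were recovered among 12788, with 7 false calls. The simulated counts had no vial effect, and their changes were larger than any called in a member with PFOS. They cannot give the recovery of such smaller changes. Among 48 replicate pairs 0 were identical, and the lowest chi-square per degree of freedom was 2.35.

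Values in every library are given for members called with PFOS, for the most abundant member of each role, for the member with the largest change in each comparison, and for HIF1A and EPAS1. The labels state that the flask of each vial was divided into the 4 groups, so that replicate numbers pair the libraries. The mean correlation of same-numbered libraries' deviations from group means, over 11998 genes, was 0.0654 to 0.152 between groups at 6 weeks and −0.206 to 0.154 at 12 weeks, the lowest between control and 1 µM, where the pairing is uncertain.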

Additional observations from a re-analysis of the deposited data

Results flagged for a closer look

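In a group of 4 libraries, a library was marked when its gap to the nearest of the others took up more of the group's range than Dixon's 95% limit allows. Chance marks about 1 in 20 groups. Of 160 groups of the 20 genes with values in every library, 14 were marked. At 12 weeks these were SLC2A1 in control replicate 4 (83.8 CPM, others 99.1 to 100.8) and in replicate 1 at 0.1 µM (97.6, others 92.3 to 93.1), GPI in replicate 4 at 0.1 µM (284.8, others 253 to 255), and ALDOC in replicate 2 at 1 µM (3.63, others 2.64 to 2.79). At 0.01 µM and 12 weeks they were EGLN3 in replicate 1 (13.4, others 12.5), CA9 in replicate 2 (0.440, others 0.712 to 0.724) and CA12 in replicate 3 (9.42, others 5.78 to 6.25). At 6 weeks they were LDHA in control replicate 4 (1138 CPM, others 1223 to 1233), P4HA1 in replicate 1 at 0.01 µM (68.5, others 72.7 to 73.6) and in replicate 3 at 1 µM (73.7, others 79.0 to 79.9), and HK1 in replicate 4 at 1 µM (209, others 224 to 226). At 0.1 µM and 6 weeks they were HK1 in replicate 4 (203, others 213 to 215), ALDOA in replicate 4 (1246, others 1272 to 1275) and ADM in replicate 3 (13.6, others 15.3 to 15.4).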

How the results depend on the processing

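All 11 log2 fold changes of members called with PFOS kept their direction in 126 of 126 recomputations, and 86 kept their call. Of 143 recomputed counts of members called, 123 stayed within 1.5 times the main count. The others follow. At 0.1 µM and 6 weeks the main count of 6 became 10 with DESeq2 and 0 with all 32 libraries in 1 fit, and 0 to 5 with 1 vial left out. At 1 µM and 6 weeks the count of 0 became 3 with DESeq2, 1 with no filter on low counts and 2 with the replicate block, and 0 to 1 with 1 vial left out. At 0.1 µM and 12 weeks the count of 4 became 2 without control replicate 3, and 0 to 2 with 1 vial left out. At 1 µM and 12 weeks the count of 1 became 4 with DESeq2, 3 with the replicate block and 3 with all 32 libraries in 1 fit. For the difference of the PFOS effect at 1 µM the count of 0 became 1 (VEGFA) with no filter, with at least 10 counts in every library, and with the replicate block. Without replicate 3 of the 12-week control 0 members passed in that test. Over all genes, the 544 calls at 0.1 µM and 6 weeks became 49 with all 32 libraries in 1 fit and 22 to 570 with 1 vial left out, and the 36 at 1 µM became 122 with DESeq2, 66 with the block, 5 in the fit of all 32 and 12 to 178 with 1 vial left out. The 136 at 0.1 µM and 12 weeks became 280 with DESeq2, 540 in the fit of all 32, 26 without control replicate 3 and 4 to 315 with 1 vial left out, and the 28 at 1 µM became 88, 136 and 14 under the first 3 of these, 45 with the block, 45 with only the groups compared and 8 to 61 with 1 vial left out. The differences of the PFOS effect called over all genes went from 27 to 137 at 0.1 µM and from 16 to 76 at 1 µM with DESeq2, to 41 and 26 with the block, to 43 at 0.1 µM with only the groups compared, to 15 there with no filter, to 13 and 5 without control replicate 3, and to 1 to 48 and 1 to 25 with 1 vial left out. The 0 at 0.01 µM and 6 weeks became 1 with DESeq2 and with the block and 0 to 6 with 1 vial left out, and the 0 differences at 0.01 µM became 1 with DESeq2 and 0 to 3 with 1 vial left out. 12 against 6 weeks at 1 µM went from 3903 calls to 2498 without replicate 3. For 12 against 6 weeks all counts of members with 1 vial left out lay between 13 and 21. The replicate block pairs libraries by vial, which is uncertain for control and 1 µM at 12 weeks, and changed no other count of members by over 1.5 times. Leaving out a vial also leaves fewer libraries, and the other causes were not tested. The smaller pseudocount of 0.25 moved 0 of 370 exact tests across 0.05, and shares of counts in place of TPM moved 0 of 36. Leaving out control replicate 3 at 12 weeks moved 0 of 18 share differences by more than the spread of the control. CA9, at 6 to 19 counts per library, is limited by depth.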
